A study of Homo sapiens with 6 samples.

Results

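The peaks described here are those whose summit lies in 2 windows of chromosome 6, chr6:26000001-26300000 and chr6:27050001-27900000 of build hg19. These windows were set on HIST1, the largest cluster of human histone genes. Other genes stand among its histone genes. Below, HIST1 peaks are all peaks of the windows, near a histone gene or not. Members were chosen by position and not by their own values, though with earlier results of these data known. The 6 peak lists held 357 such peaks of 212831 in all, and these merged into 81 regions of 58926. The libraries are ATAC-seq libraries of HCT116, an established human colon cancer cell line. In this assay a transposase cuts and tags accessible DNA, and peaks mark stretches with more fragments than the local background. Labels place 3 libraries under the genotype NuMA depletion and 3 under wild type, with replicates numbered 1 to 3 in each. NuMA, encoded by NUMA1, is a structural protein of the interphase nucleus and of the mitotic spindle poles, and the series title links it to linker histone binding. The labels give no agent, time or clone for the depletion, and sample titles carry the letters AID and NC without spelling them out. Whether replicates were grown apart is not stated, so the p-values cover library-to-library variation that could be purely technical. The amount of NuMA cannot be checked in peak lists.

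Replication-dependent histone genes are short and lack introns, and they are transcribed mainly in S phase, when new nucleosomes are needed. Their mRNAs end in a stem-loop in place of a poly(A) tail, and the cluster gathers in nuclear bodies called histone locus bodies. Core histones H2A, H2B, H3 and H4 build the nucleosome, while linker histone H1 binds where DNA enters and leaves it and helps nucleosomes stack. HIST1H1A to HIST1H1E encode somatic linker histones, and HIST1H1T encodes a testis-specific one. RefSeq lists 55 protein-coding genes on chromosome 6 under an older symbol that starts with HIST1H. By type these are 6 H1, 12 H2A, 15 H2B, 10 H3 and 12 H4 genes. HIST1H2AA and HIST1H2BA stand apart, before SLC17A4, SLC17A3, SLC17A2 and TRIM38. Whether all 55 genes lie in the windows was not checked. HFE, a regulator of iron uptake, lies among the histone genes between HIST1H1C and HIST1H4C. The butyrophilin genes BTN3A2 to BTN1A1 follow HIST1H4H, and PRSS16, POM121L2, ZNF391 and ZNF184 stand between HIST1H2AH and HIST1H2BL.

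The promoters of the 6 linker histone genes are shown because they share a motif that the core histone promoters of the cluster lack. Each line gives the 250 bases before the gene's start, 5′ to 3′, from the RefSeq promoter table (build GRCh38.p14). Capitals mark CCAAT, the TATA-like motif TATANA and AAACACA, the core of the H1 box, on either strand. These positions are on another build than the peaks, so no peak was assigned to a gene here.
HIST1H1A (H1-1), chr6:26017788-26018037, minus strand: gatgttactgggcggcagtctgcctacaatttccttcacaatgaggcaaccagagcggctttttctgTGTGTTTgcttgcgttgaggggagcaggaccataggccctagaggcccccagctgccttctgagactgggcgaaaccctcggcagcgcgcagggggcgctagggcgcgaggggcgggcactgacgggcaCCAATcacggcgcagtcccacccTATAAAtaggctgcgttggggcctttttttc
HIST1H1C (H1-2), chr6:26056471-26056720, minus strand: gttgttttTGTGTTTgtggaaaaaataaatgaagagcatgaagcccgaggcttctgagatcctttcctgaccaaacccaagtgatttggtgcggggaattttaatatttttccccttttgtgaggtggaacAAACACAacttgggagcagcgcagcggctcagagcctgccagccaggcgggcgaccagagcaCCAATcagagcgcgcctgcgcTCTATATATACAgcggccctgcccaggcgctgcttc
HIST1H1T (H1-6), chr6:26108136-26108385, minus strand: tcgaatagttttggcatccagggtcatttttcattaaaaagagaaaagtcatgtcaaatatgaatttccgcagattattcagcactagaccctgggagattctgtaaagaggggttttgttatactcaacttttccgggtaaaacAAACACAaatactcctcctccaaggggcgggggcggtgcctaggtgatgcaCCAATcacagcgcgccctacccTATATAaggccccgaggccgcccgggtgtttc
HIST1H1E (H1-4), chr6:26156079-26156328, plus strand: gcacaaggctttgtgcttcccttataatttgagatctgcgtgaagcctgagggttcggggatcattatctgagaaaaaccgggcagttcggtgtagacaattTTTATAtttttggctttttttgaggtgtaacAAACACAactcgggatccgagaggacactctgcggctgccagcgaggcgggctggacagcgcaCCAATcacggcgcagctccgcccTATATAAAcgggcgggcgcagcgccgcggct
HIST1H1D (H1-3), chr6:26234988-26235237, minus strand: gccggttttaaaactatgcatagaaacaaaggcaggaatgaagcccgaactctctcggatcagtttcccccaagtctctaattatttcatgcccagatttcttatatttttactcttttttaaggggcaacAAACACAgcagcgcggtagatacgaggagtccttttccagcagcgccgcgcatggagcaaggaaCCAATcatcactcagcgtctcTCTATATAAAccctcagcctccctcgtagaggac
HIST1H1B (H1-5), chr6:27867589-27867838, minus strand: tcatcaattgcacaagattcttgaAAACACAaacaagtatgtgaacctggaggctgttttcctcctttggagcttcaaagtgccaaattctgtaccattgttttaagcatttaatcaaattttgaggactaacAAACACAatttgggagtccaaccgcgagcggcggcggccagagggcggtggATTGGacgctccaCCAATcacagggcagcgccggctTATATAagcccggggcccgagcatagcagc

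AAACACA was found in 6 of the 6 linker histone promoters and in none of the 44 core histone promoters of the cluster that the table holds. It occurs in 4.82% of all 35116 promoters of the same length. In HIST1H1B, HIST1H1C, HIST1H1D and HIST1H1E a copy starts between 117 and 119 bases before the gene. In HIST1H1T it starts 105 bases before the gene, and in HIST1H1A the only match lies 183 bases before the gene and on the other strand. CCAAT was present in all 6 H1, 11 H2A, 15 H2B and 8 H3 promoters, but in 3 of 10 H4 promoters, against 32.0% of all promoters. TATANA, whose matches can overlap each other on the 2 strands, was present in 42 of the 50 HIST1 promoters and in 17.7% of all promoters. These matches describe letters and are not evidence of binding.

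Peak lists differed in length and depth, which bears on every count below. NuMA-depleted replicates 1, 2 and 3 listed 38466, 45892 and 21783 peaks genome-wide, and wild-type replicates 1, 2 and 3 listed 35502, 38685 and 32503. Relative depth, recovered from the fold and p-value of the peaks and scaled to a mean of 1 over the 6 libraries, ran from 1.07 to 1.21 in NuMA-depleted and from 0.762 to 0.975 in wild-type libraries. Depth and genotype can therefore not be told apart. NuMA-depleted replicate 3 stands apart by its short list, although its relative depth of 1.11 exceeded that of every wild-type library. Results that rest on it are also given without it. Absence from a list means that the caller's threshold was not passed, not that the DNA was closed.

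HIST1 was among the parts of the genome most densely set with peaks. The windows held 66, 72 and 43 peaks in NuMA-depleted replicates 1, 2 and 3, and 54, 69 and 53 in wild-type replicates 1, 2 and 3. Density was 51.7 ± 9.79 peaks per Mb (SD, n = 6), against a median of 12 in 1 Mb bins of the genome. Of 2581 such bins outside the cluster, 7 were at least as dense, and none of the 155 on chromosome 6 was. The 0.75 Mb between the windows, where the butyrophilin genes lie in RefSeq's order, held 31.8 ± 4.80 peaks per Mb (SD, n = 6). Density was higher in the windows in 6 of 6 libraries, by 12.1 to 25.3 peaks per Mb, with p = 0.03125 (exact sign-flip test over libraries, two-sided), the smallest value it can give, and 0.0938 after adjustment over 6 comparisons. Within the cluster the first window was denser than the second in 6 of 6 libraries, at 66.1 ± 9.98 and 46.7 ± 9.89 peaks per Mb (SD, n = 6 each, exact p = 0.03125, adjusted 0.0938). Both sign-flip tests ask whether libraries repeat a difference between the same stretches of DNA. They do not cover variation among loci.

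**Figure D1:**
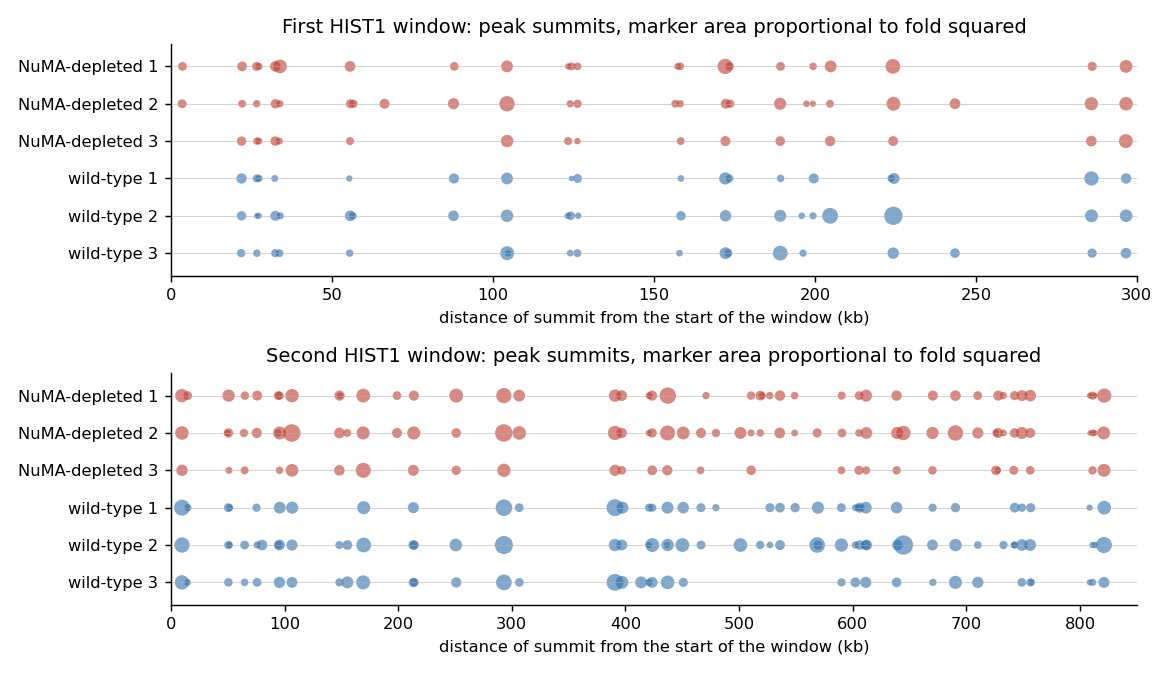
Summits of called peaks by library along both windows, as distance in kb from the window's start. Red points are NuMA-depleted and blue points wild-type libraries, and marker area is proportional to the square of the fold over local background. Most columns of points run through both genotypes, and the row of NuMA-depleted replicate 3, with 43 peaks, is the sparsest.

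With all deposited peaks, the number of HIST1 peaks showed no group difference larger than the variation among replicates. Per 1000 peaks of its own list, the windows held 1.72, 1.57 and 1.97 peaks in NuMA-depleted replicates 1, 2 and 3 and 1.52, 1.78 and 1.63 in wild-type replicates 1, 2 and 3. Values of the groups overlapped, with means of 1.75 ± 0.205 and 1.65 ± 0.132 (SD, n = 3 each). The difference of 0.108 had p = 0.6 (exact permutation test, two-sided), and 0.6 after adjustment over 4 group comparisons. With 3 libraries against 3 this test cannot go below 0.1. Without NuMA-depleted replicate 3 the difference was -0.00275 (exact p = 1). When peaks under a −log10 q of 5 were left out, the groups did not overlap, with 1.55, 1.58 and 1.88 per 1000 in NuMA-depleted and 1.26, 1.45 and 1.30 in wild-type replicates 1, 2 and 3 (difference 0.332, exact p = 0.1). At equal numbers of peaks they overlapped again, at a difference of 0.413 (exact p = 0.3) in which NuMA-depleted replicate 3 had 1.97 and the other 5 libraries 0.780 to 0.918. That setting kept the strongest 21783 peaks of each list by p-value, which is the whole list of NuMA-depleted replicate 3. This library lost no peaks while the other 5 lost their weakest, so its value is not on a par with theirs.

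Spacing overlapped between the groups as well. The median distance between neighbouring summits was 13658, 13579 and 19577 bp in NuMA-depleted replicates 1, 2 and 3, and 13777.5, 10986 and 13917 bp in wild-type replicates 1, 2 and 3. NuMA-depleted replicate 3, with the fewest peaks, had the widest spacing, wild-type replicate 2 the closest, and the other libraries lay between 13579 and 13917 bp. The difference was 2711 bp (exact permutation p = 0.6, adjusted 0.6). It was 725 bp without that replicate (exact p = 1), and -13741.5 bp (exact p = 0.4) when each list was reduced to its strongest 21783 peaks. Only the list of NuMA-depleted replicate 3 was left whole by that cut. Summits under 5 kb apart made up 12.2% to 26.9% of neighbour distances. Over all libraries together, the longest stretch without a called region was 83447 bp, after chr6:27356420-27356791. The next, 50638 bp, followed chr6:27805185-27807671.

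With all deposited peaks, median width in HIST1 was greater in every NuMA-depleted library than in any wild-type library. The design is too small to pass a threshold of 0.05. Median width was 552, 685.5 and 463 bp in NuMA-depleted replicates 1, 2 and 3, and 441.5, 393 and 412 bp in wild-type replicates 1, 2 and 3. The groups did not overlap, and NuMA-depleted replicate 3 came closest to the wild-type libraries. Means were 567 ± 112 and 415.5 ± 24.4 bp (SD, n = 3 each), a difference of 151 bp (exact permutation test, two-sided, p = 0.1, adjusted 0.2). Without NuMA-depleted replicate 2, the deepest library, the difference was 92 bp and the groups still did not overlap (exact p = 0.1, with 2 against 3). It was 162 bp in the first window and 133 bp in the second (exact p = 0.1 each). The smallest width in a whole list was 213, 264 and 223 bp in NuMA-depleted and 203, 190 and 222 bp in wild-type replicates 1, 2 and 3. Less this smallest width, a measure chosen after seeing the data, the difference was 123 bp (exact permutation p = 0.1). NuMA-depleted replicate 3 then stood at 240 bp and wild-type replicate 1 at 238.5 bp.

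Elsewhere in the genome the difference mostly had the same direction but was smaller. Over whole lists, median widths were 461, 536 and 443 bp in NuMA-depleted and 446, 434 and 468 bp in wild-type replicates 1, 2 and 3, and these overlapped. Among 177 other 1 Mb bins with at least 20 peaks in every library, the median difference was 25.3 bp and the highest 131.5 bp, so that none reached the 151 bp of the windows. The mean was higher in NuMA-depleted libraries in 140 of these 177 bins (79.1%). All 3 NuMA-depleted libraries were above all 3 wild-type ones in 6.21% of these bins, and below them in 0%. Of 932 bins with at least 10 peaks in every library, 5 reached 151 bp. NuMA-depleted libraries had the higher mean in 74.5% of the 932, and 8.26% separated the groups in that direction. Divided by the library's own median, width was 1.20, 1.28 and 1.05 in the NuMA-depleted and 0.990, 0.906 and 0.880 in the wild-type replicates. The 3 NuMA-depleted libraries are also the 3 deepest, and depth as a source of the wider peaks was not tested. With peaks of −log10 q of at least 5 the groups overlapped, at a difference of 98.2 bp (exact p = 0.4), and at equal numbers of peaks they did so at 112.5 bp (exact p = 0.5). In both settings NuMA-depleted replicate 3 had the narrowest median of all libraries. It stood at 498.5 bp against 505 to 554.5 bp in wild-type libraries in the first, and at 463 bp against 529 to 641 bp in the second.

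**Figure D2:**
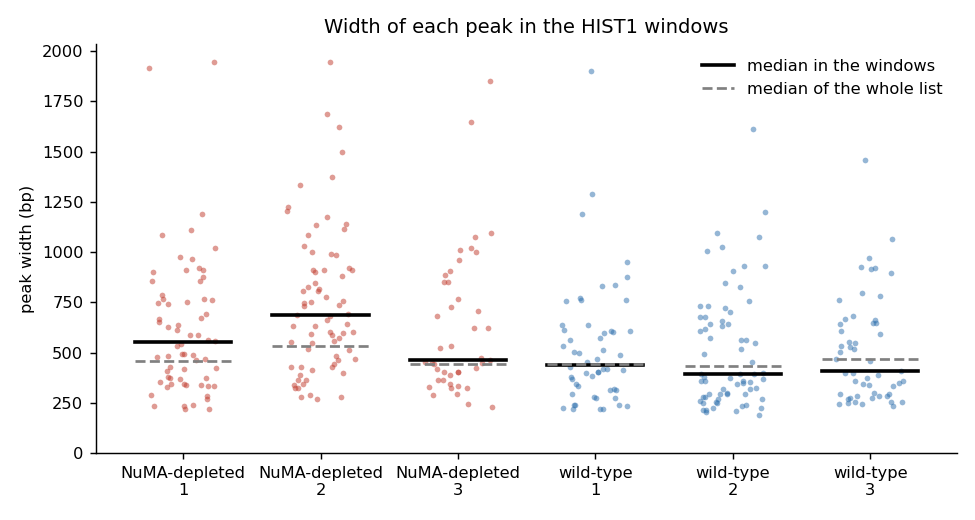
Width in bp of each peak in the windows, by library. Black lines are medians in the windows (463 to 685.5 bp in NuMA-depleted, 393 to 441.5 bp in wild-type libraries) and dashed grey lines are medians of the whole list, which lie below the black lines in the 3 NuMA-depleted libraries and above them in the 3 wild-type ones.

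The share of covered DNA that lay in HIST1 was also higher in every NuMA-depleted library. HIST1 took 0.199%, 0.190% and 0.244% of all bp under peaks in NuMA-depleted replicates 1, 2 and 3, and 0.153%, 0.178% and 0.153% in wild-type replicates 1, 2 and 3. Again the groups did not overlap, with means of 0.211% ± 0.0288 and 0.161% ± 0.0148 (SD, n = 3 each, exact permutation p = 0.1, adjusted 0.2). The ratio of the means was 1.31. In the 177 other 1 Mb bins it had a median of 1.001 and a highest value of 1.28, and 3.95% of those bins separated the groups in that direction. Without NuMA-depleted replicate 3, whose share was the highest, the difference fell from 0.0494 to 0.0330 percentage points (exact p = 0.2). As a share of the windows' own length the groups overlapped. Peaks covered 3.57%, 4.70% and 2.35% in NuMA-depleted and 2.47%, 3.07% and 2.36% in wild-type replicates 1, 2 and 3 (exact p = 0.4).

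Most peaks of the cluster ranked low by fold within their own list. Fold over local background, which is each list's own value, had a median of 5.37 to 5.71 in the windows and of 6.08 to 7.38 over whole lists. Between 68.1% and 80.3% of a library's HIST1 peaks lay below its own list's median fold. Median fold in the windows ranked at the 24.3, 33.0 and 35.4 percentile of the list in NuMA-depleted and at the 28.8, 24.6 and 23.1 percentile in wild-type replicates 1, 2 and 3. Folds were not tested between groups. Those of single regions are listed below by library, and their means over libraries are descriptive. The number of fragments over a summit, its pileup, had a median in the windows of 17.5, 25 and 16 in NuMA-depleted and 14, 15 and 14 in wild-type replicates 1, 2 and 3. At the summits of single peaks the pileup ran from 6 to 57 fragments. Near-identical histone genes can share reads, and the sources used here do not say how reads with several matches were handled.

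Whether regions of the cluster recurred across libraries more often than others depended on which peaks were counted. Of the 81 regions, 30 (37.0%) were called in all 6 libraries, beside 28.9% of all merged regions, and 9 (11.1%) in a single library, beside 25.1%. Among peaks at a −log10 q of 5 or more the order turned, with 18 of 76 regions (23.7%) in all 6 libraries beside 29.0% genome-wide. At equal numbers of peaks, 6 of 53 (11.3%) were, beside 33.9%. With all peaks, the first window held 13 shared regions of 23 (56.5%) and the second 17 of 58 (29.3%). Shared regions had a median merged width of 1119.5 bp, beside 914 bp for shared regions genome-wide. Of all 81 regions 32 (39.5%) were wider than 1 kb, beside 13.9% over the genome. Merged width rose with the number of libraries, from a median of 282 bp in the windows for regions of 1 library. Single peaks had median widths of 491 ± 110 bp in the windows and 465 ± 37.1 bp over whole lists (SD, n = 6 each). They were wider in the windows in 3 of 6 libraries (exact sign-flip p = 0.5, adjusted 0.6). In 14 of the 81 regions at least 1 library called several peaks, and in each of those 14 at least 1 other library called 1 peak.

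**Figure D3:**
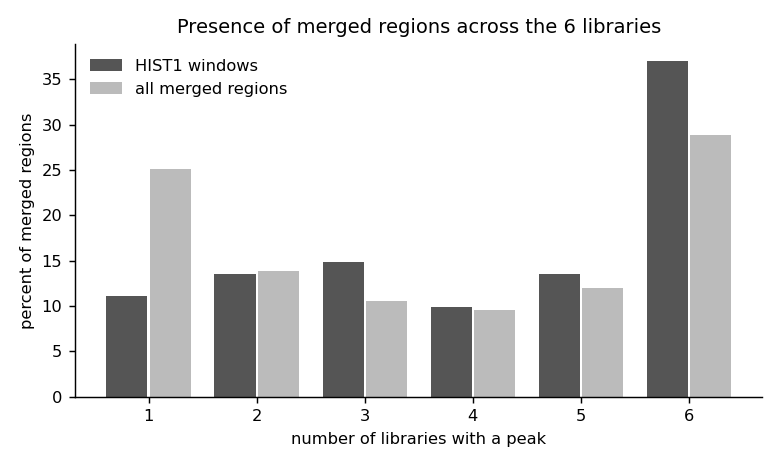
Percent of merged regions by the number of libraries with a peak, for the 81 regions of the windows (dark) and all 58926 regions (light). The bar for 6 libraries stands at 37.0% for the windows and 28.9% for the genome.

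The 2 strongest shared regions lay in the second window. Regions were ranked by the lowest −log10 q that any library gave them, and chr6:27218872-27219883 came first. Its fold was 8.09, 7.65 and 8.77 in NuMA-depleted and 7.63, 8.61 and 8.20 in wild-type replicates 1, 2 and 3, a mean of 8.16 ± 0.474 (SD, n = 6). Next was chr6:27342316-27343382, with 8.85, 10.2 and 7.76 in NuMA-depleted and 9.66, 10.6 and 9.17 in wild-type replicates. Its mean fold was 9.37 ± 1.008 (SD, n = 6). The others of the 5 strongest there were chr6:27870421-27871531, chr6:27059530-27060135 and chr6:27440239-27441263, with mean folds of 7.86 ± 0.977, 8.17 ± 0.961 and 8.19 ± 1.41 (SD, n = 6 each).

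In the first window the strongest shared region was chr6:26103607-26104982. Its fold was 6.88, 8.97 and 7.29 in NuMA-depleted and 6.89, 7.31 and 8.14 in wild-type replicates 1, 2 and 3. The 2 genotypes overlapped there. Then came chr6:26020589-26022539, a region of 1951 bp with low folds of 4.59 to 6.02, and chr6:26172043-26173769, with folds of 5.78 to 8.97. The others were chr6:26296080-26297271, with 6.10 to 8.15, and chr6:26223579-26224661, with 5.78 to 10.7. The widest merged region of all, 2487 bp, was chr6:27805185-27807671, with folds of 4.83 to 6.93. Another of 1971 bp lay at chr6:26055211-26057181, with folds of 3.71 to 6.25.

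In the 30 shared regions, the bp under peaks were compared region by region. The mean was higher in NuMA-depleted libraries in 23 of the 30 (76.7%), beside 51.1% of the 17009 shared regions of the genome. All 3 NuMA-depleted libraries were above all 3 wild-type ones in 4 regions (13.3%), beside 4.09% genome-wide, and below in none, beside 3.22%. These 4 are named after their values were seen. At chr6:26285784-26286784 peaks covered 857, 1001 and 853 bp in NuMA-depleted and 279, 297 and 276 bp in wild-type replicates 1, 2 and 3. At chr6:26123202-26124637 they covered 964, 1373 and 710 bp against 242, 504 and 299 bp. At chr6:27805185-27807671 the values were 1913, 1621 and 1849 bp against 1287, 1096 and 1203 bp. The smallest of these differences was at chr6:27263128-27264362, with 1109, 1139 and 1096 bp against 761, 987 and 771 bp. Over the 30 regions the median covered bp per region overlapped between the groups, with 776, 917 and 644.5 bp in NuMA-depleted and 623.5, 729 and 657.5 bp in wild-type replicates (exact permutation p = 0.3). NuMA-depleted replicate 3 was there below 2 of the 3 wild-type libraries.

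**Figure D4:**
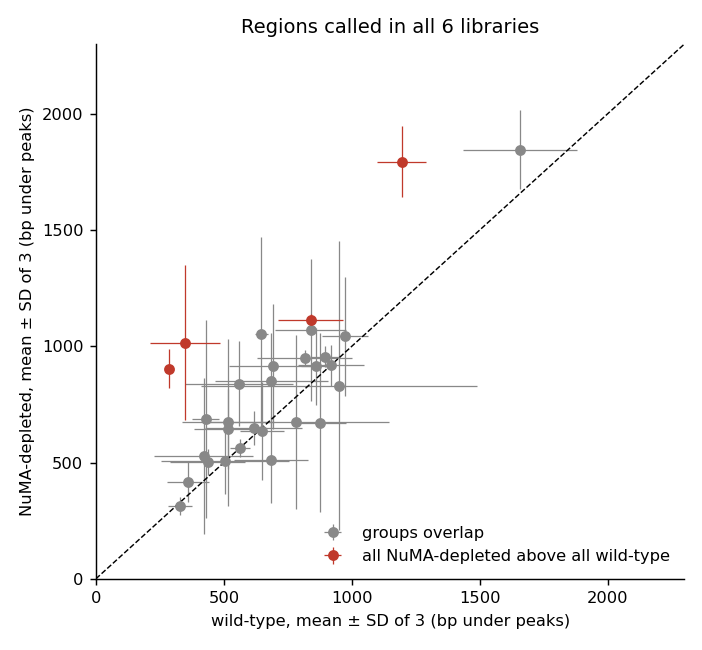
Bp under peaks in each of the 30 regions called in all 6 libraries, as the mean ± SD of 3 NuMA-depleted (y axis) against 3 wild-type libraries (x axis). The dashed line marks equality, 23 points lie above it, and the 4 regions in red are those where every NuMA-depleted library exceeded every wild-type library.

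Of the 81 regions of HIST1, 12 (14.8%) had peaks in NuMA-depleted libraries alone, beside 19.4% of all merged regions, and 7 (8.64%) in wild-type libraries alone, beside 13.6%. Most of these came from 1 or 2 libraries. Some lay beside another region, as only overlapping peaks were merged. The depleted-only chr6:27598732-27599199 ended 26 bp before the wild-type-only chr6:27599226-27599522. The depleted-only chr6:26156566-26157447 lay 276 bp before a region called in all 6 libraries, and the wild-type-only chr6:27101605-27101988 lay 176 bp after another such region. All 3 libraries of the group and none of the other called 2 NuMA-depleted regions (2.47%, beside 0.625% of all merged regions) and 1 wild-type region (1.23%, beside 0.592%). At chr6:27777682-27778308 the fold was 5.88, 5.88 and 3.72 in NuMA-depleted replicates 1, 2 and 3, from 22, 37 and 12 fragments at the summit. At chr6:27560357-27560736 it was 4.90, 4.07 and 5.55, from 12, 13 and 12 fragments. The wild-type region, chr6:27652155-27652455, had folds of 4.02, 4.21 and 5.75 from 13, 16 and 19 fragments. All 3 regions lie in the second window and had weakest −log10 q values of 3.05, 4.27 and 3.96, in the order given. With a −log10 q of at least 5, 1 depleted-only region (1.32%, beside 0.620% of all regions) and 0 wild-type-only regions (beside 0.529%) were counted in this way. Without NuMA-depleted replicate 3, the depleted-only count was 6 (7.14%, beside 4.59%). Wild-type-only regions numbered 2 without wild-type replicate 1 (2.47%, beside 1.38%) and 2 without wild-type replicate 3 (2.50%, beside 1.69%).

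Another 11 regions were missing from 1 library only. Wild-type replicate 1 lacked 5 of them, NuMA-depleted replicate 3 lacked 4, and wild-type replicate 3 lacked 2. NuMA-depleted replicate 3 was the only absentee in 4.94% of HIST1 regions, beside 8.69% genome-wide. For wild-type replicate 1 this share was 6.17%, beside 0.889%, and for wild-type replicate 3 it was 2.47%, beside 1.38%. The strongest of the 11 was chr6:27655130-27656267, called with folds of 4.44 to 5.86 in every library but wild-type replicate 3. The others of the 5 strongest were chr6:27300590-27301360, chr6:27113821-27115359 and chr6:27198048-27199142, not called in wild-type replicate 1, and chr6:27740141-27740494, not called in NuMA-depleted replicate 3. The single highest fold of the windows, 11.3 in wild-type replicate 2, belonged to chr6:27694402-27694707, which only NuMA-depleted replicate 2 called besides. That region is named after its values were seen.

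Peak density along the cluster was compared in 50 kb bins, with a fit over all 5739 bins of the genome that had a mean of at least 2 peaks. Of the 23 bins of the windows 14 were tested, and none passed an adjusted p of 0.05 by limma, as 0 (0%) of all bins did. At an unadjusted p under 0.05 there were 2 of the 14, beside 4.84% of all bins. The smallest p belonged to 27.55 to 27.60 Mb, with 6, 5 and 1 peaks in NuMA-depleted and 3, 4 and 0 in wild-type replicates 1, 2 and 3, where the groups overlapped. Its log2 difference in share of peaks was 0.99 (SE 0.319, limma adjusted p = 0.325). At 27.75 to 27.80 Mb there were 5, 6 and 3 peaks against 2, 5 and 2. The log2 difference was 0.69 (SE 0.288, limma adjusted p = 0.715), and by share of peaks this was the 1 bin of 14 where every NuMA-depleted library was above every wild-type library, as in 4.23% of all bins. None of the 14 separated the other way, as 4.77% of all bins did. Both bins are named after their values were seen. The densest bin, 26.15 to 26.20 Mb, held 6, 7 and 3 peaks in NuMA-depleted and 5, 5 and 5 in wild-type replicates.

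**Figure D5:**
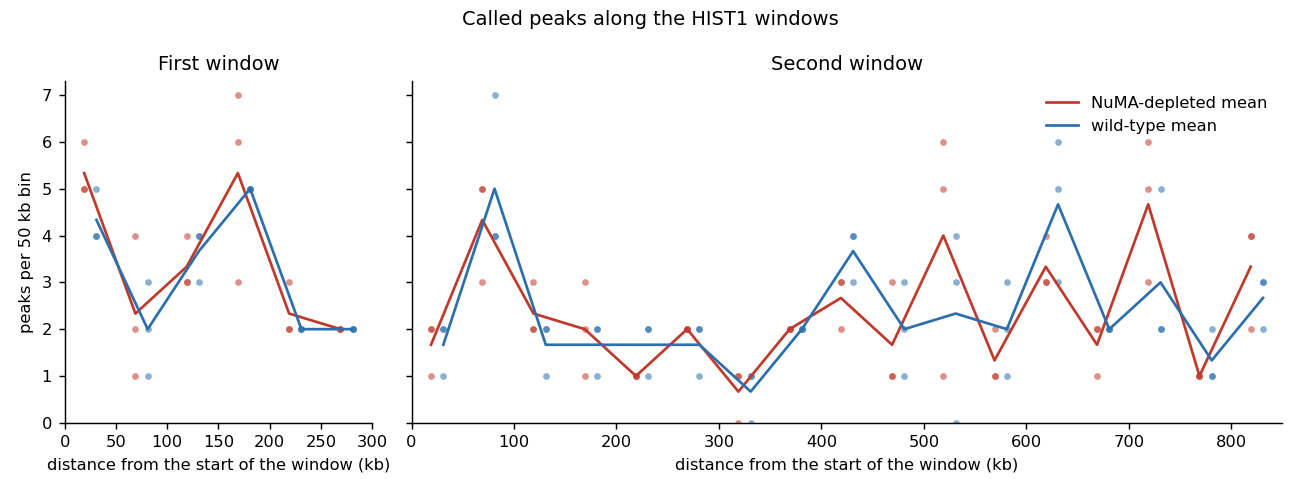
Called peaks per 50 kb bin along both windows, as distance in kb from the window's start. Points are single libraries and lines the means of 3 NuMA-depleted (red) and 3 wild-type (blue) libraries, shifted apart sideways for legibility, and the lines cross repeatedly.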

How the data were processed

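ATAC-seq peak lists of 6 HCT116 libraries, 3 NuMA-depleted and 3 wild-type, were analysed. The submitters' processing notes name Trim Galore, Bowtie2 2.4.1, Picard and build hg19. Peak names in the deposited files hold a macs2 folder; the sources used here do not state caller version, settings or read filters. Each sample has its own list. The deposited columns used here are the fold over local background (a ratio), the −log10 p-value, the −log10 q-value (at least 2.00) and, unused, a score.

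Peaks were placed by summit. Relative depth and whole-fragment pileups were recovered from fold and p under a Poisson model with a pseudocount of 1, within 0.01 on the −log10 scale for 99.986% to 99.994% of peaks. Depth was taken as the smallest background divided by the smallest width; depth in reads is unknown. Lists were merged at an overlap of 1 bp. Group means were compared with exact permutation tests over 20 assignments and windows with sign flips over 6 libraries. The 50 kb bins were compared with limma 3.58.1 in R 4.3.3 (log2 share of peaks, pseudocount 0.5 peaks, mean trend, Benjamini-Hochberg, threshold 0.05). The limma fit was tried on simulated Poisson counts with changes planted only in denser bins. Its power for bins with few peaks was not checked. Python 3.11.15, numpy 2.4.6, pandas 2.3.3 and scipy 1.17.1 were used.

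Named regions were the 5 of each window with the highest weakest −log10 q among regions called in all 6 libraries, the 3 widest, those of 1 group, and 5 missing in 1 library. Members and lists were chosen with earlier results of these data known. Gene positions on hg19 were not used here, so the planned count of histone promoters with a peak was not run. Promoters were matched by older symbol, for 50 of 55 protein-coding HIST1 genes.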

Additional observations from a re-analysis of the deposited data

How the results depend on the processing

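The higher covered share and the greater median width in NuMA-depleted libraries kept their direction under every alternative run, 10 and 14 in number. The replicate block is counted there, although it alters the p-value and not the difference. Equal numbers of peaks are counted too, although only the list of NuMA-depleted replicate 3 was left whole there. Covered share was then 0.107%, 0.0974% and 0.244% in NuMA-depleted and 0.0955%, 0.0897% and 0.0724% in wild-type replicates 1, 2 and 3. In width the groups overlapped at −log10 q of 5 or more, at equal numbers of peaks and in regions called in all 6 libraries. NuMA-depleted replicate 3 had the narrowest median of all libraries in the first 2 of these settings. In covered share they overlapped as a percent of the windows' length. With single libraries omitted, differences in width ranged from 92 to 203.25 bp, in covered share from 0.0330 to 0.0598 percentage points, in spacing from 725 to 3724 bp and in peaks per 1000 from -0.00275 to 0.1998. The last turned without NuMA-depleted replicate 3, and spacing turned to -13741.5 bp at equal numbers of peaks. Regions called in all 6 libraries, 30, numbered 18 (23.7%, beside 29.0% of all regions) at −log10 q of 5 or more, 6 (11.3%, beside 33.9%) with lists of equal length, and 30 to 35 with single libraries omitted. Depleted-only regions, 2, numbered 1 at −log10 q of 5 or more, 7 (8.64%, beside 5.04%) if called in 2 of 3 libraries, and 2 to 6 with single libraries omitted. Wild-type-only regions, 1, numbered 0 at −log10 q of 5 or more, 0 with lists of equal length (beside 0.975%), 3 (3.70%, beside 2.85%) if called in 2 of 3 libraries, and 1 to 2 with single libraries omitted. No bin of the windows passed under any of 12 alternatives, while 0 to 29 bins did genome-wide, the most at equal numbers of peaks, where 1 bin of the windows was tested. With a replicate block, the exact sign-flip p was 0.75 for peaks per 1000, 0.25 for covered share, 0.25 for width (the smallest 3 pairs allow) and 0.5 for spacing, and 0 of the windows' 14 bins passed, as 1 of 5739 bins genome-wide did. Same-numbered libraries correlated at -0.0424, 0.123 and 0.0524 over 5739 bins, so the numbers were not taken to pair them. Widths relative to the list and bp per shared region were chosen after seeing the data. Summit pileups of 6 to 57 fragments limit what single regions can show, and no exact permutation test of 3 against 3 can pass 0.05.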
